A study of Mus musculus with 8 samples.

Results

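The genes described here are 9 factors and markers of naive, central and stem-like T cells: Tcf7, Lef1, Satb1, Bach2, Id2, Id3, Dapl1, Igfbp4 and Actn1. They were taken by name from the 54837 Ensembl identifiers of the deposited count table, and all 9 were found and passed the filter on low counts. Libraries were made from splenic CD4 T cells of mice given tamoxifen for 5 days. The GFPhi group (3 libraries) holds FoxP3+ GFP+ cells gated as TIM-3+ and FLAG+, and the GFPLow group (3 libraries) FoxP3- GFP- cells of the same TIM-3+ and FLAG+ gate, both from mice with Foxp3-eGFP-Cre-ERT2 crossed to FSF-TIM-3. The WT group (2 libraries) holds FoxP3+ GFP+ cells gated as TIM-3- and FLAG-, from mice that carry Foxp3-eGFP-Cre-ERT2 without FSF-TIM-3, so all 3 groups share the eGFP-Cre-ERT2 allele at Foxp3 and the tamoxifen. In such mice a tamoxifen-activated Cre is expressed from Foxp3, which specifies regulatory T (Treg) cells. The titles call the GFPLow libraries Treg as well, against their FoxP3- cell type. No age, sex or number of mice per library is stated. P-values thus measure only the spread between these libraries, part of which may be technical. The sex-linked transcripts Xist and Ddx3y, given at the end, set library 3 of GFPhi and of GFPLow apart from the others of its group.

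As background, Tcf7 (which encodes TCF1) and Lef1 are closely related HMG-box transcription factors that maintain the naive and memory state of T cells and can recruit beta-catenin or Groucho corepressors. Satb1 is a chromatin organiser of thymocytes and naive T cells, and Bach2 is a repressor that restrains effector differentiation and is known for its part in Treg formation. Id2 and Id3 carry a helix-loop-helix but no DNA-binding region. They hold E proteins off E-box sites, and in T cells Id2 is linked to effector and Id3 to naive, memory and Treg states. Dapl1 (death-associated protein-like 1), Igfbp4 (a secreted binding protein of insulin-like growth factors) and Actn1 (alpha-actinin 1, which crosslinks actin filaments) are used as transcript markers of naive and central T cells.

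Promoters are shown for 4 members whose levels the results turn on, Dapl1 and Igfbp4, which differed by the largest factors, and Id2 and Id3, whose means lay in opposite directions. Each is the RefSeq reference sequence (GRCm38.p6), from 250 bases before to 50 bases after the annotated start, and capitals mark E-boxes (CANNTG, the site of the E proteins that Id2 and Id3 bind). The Dapl1 window is chr2:59484403-59484702 on the plus strand, the Igfbp4 window chr11:99040994-99041293 on the plus strand, the Id2 window chr12:25096043-25096342 on the minus strand and the Id3 window chr4:136143572-136143871 on the plus strand.
Dapl1: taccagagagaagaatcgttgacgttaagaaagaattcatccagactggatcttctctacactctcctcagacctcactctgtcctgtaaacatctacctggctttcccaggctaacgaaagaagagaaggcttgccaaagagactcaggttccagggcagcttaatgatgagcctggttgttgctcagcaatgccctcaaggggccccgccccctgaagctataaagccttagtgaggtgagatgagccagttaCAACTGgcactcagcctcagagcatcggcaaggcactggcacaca
Igfbp4: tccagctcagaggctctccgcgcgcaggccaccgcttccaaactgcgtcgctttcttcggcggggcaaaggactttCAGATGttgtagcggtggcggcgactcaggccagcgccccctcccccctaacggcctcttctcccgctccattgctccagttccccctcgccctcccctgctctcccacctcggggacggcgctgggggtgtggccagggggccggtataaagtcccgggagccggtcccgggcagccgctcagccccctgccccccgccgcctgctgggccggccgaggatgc
Id2: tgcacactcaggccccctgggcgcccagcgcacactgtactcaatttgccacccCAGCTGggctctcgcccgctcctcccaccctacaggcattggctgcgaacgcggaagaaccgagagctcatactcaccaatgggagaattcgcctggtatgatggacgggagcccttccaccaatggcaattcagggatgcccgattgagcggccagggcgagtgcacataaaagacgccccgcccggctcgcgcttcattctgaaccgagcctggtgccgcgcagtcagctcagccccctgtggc
Id3: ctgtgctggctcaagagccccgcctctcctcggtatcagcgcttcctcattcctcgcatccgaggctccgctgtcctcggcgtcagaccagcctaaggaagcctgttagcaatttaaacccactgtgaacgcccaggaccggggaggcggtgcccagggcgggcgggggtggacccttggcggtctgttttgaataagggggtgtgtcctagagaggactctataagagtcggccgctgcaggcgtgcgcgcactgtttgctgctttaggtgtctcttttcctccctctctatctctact
The motif reads the same on both strands. It stood once each in the Dapl1, Igfbp4 and Id2 windows and in no position of the Id3 window, and 72.3% of the 32851 promoter windows of the same length hold it. Over all 9 genes, RefSeq lists 17 windows of this kind, of which 14 held the motif. The TCF and LEF core CTTTGAT, searched on both strands and present in 3.73% of all windows, was in 0 of the 17, and the AP-1-like element TGANTCA, also searched on both strands and present in 7.81% of all windows, was in 0 of the 17. These are matches of letters and not binding sites. RefSeq places the starts of Id2 and Id3 inside the gene bounds given below.

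The libraries held 44446215 to 55388756 counts, and 18851 genes were tested. Foxp3 stood at 60.2 to 81 CPM (the count scaled to library size, with TMM factors) in GFPhi, 1.97 to 4.82 CPM in GFPLow, and 41.7 and 63.2 CPM in WT. Havcr2, which encodes TIM-3, stood at 1077 to 1791 CPM in GFPhi, 127 to 538 CPM in GFPLow, and 0.876 and 0.172 CPM in WT, so both genes go with the gates. All 7 Treg markers rose in GFPhi against GFPLow and fell in GFPLow against WT. The 8 CD4 T cell markers were counted in every library. WT library 1 stood apart, with a TMM factor of 0.694 (1.041 to 1.07 in the other libraries), 18599 genes with counts (21248 to 22185) and 15.2% of counts in ribosomal protein genes (6.12% to 6.97%). WT library 2 held Xist at 242 CPM together with the Y-linked Ddx3y at 6.16 CPM, transcripts that mark female and male cells. WT library 1 held Xist at 0 and Ddx3y at 170 CPM, so the WT libraries also differed in these transcripts. Both WT libraries thus carry a doubt, and results against WT are also given without 1 of them. The 9 genes had 473 to 61686 counts per library. In bulk RNA, fewer cells of a type and less RNA per cell cannot be told apart.

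**Figure D1:**
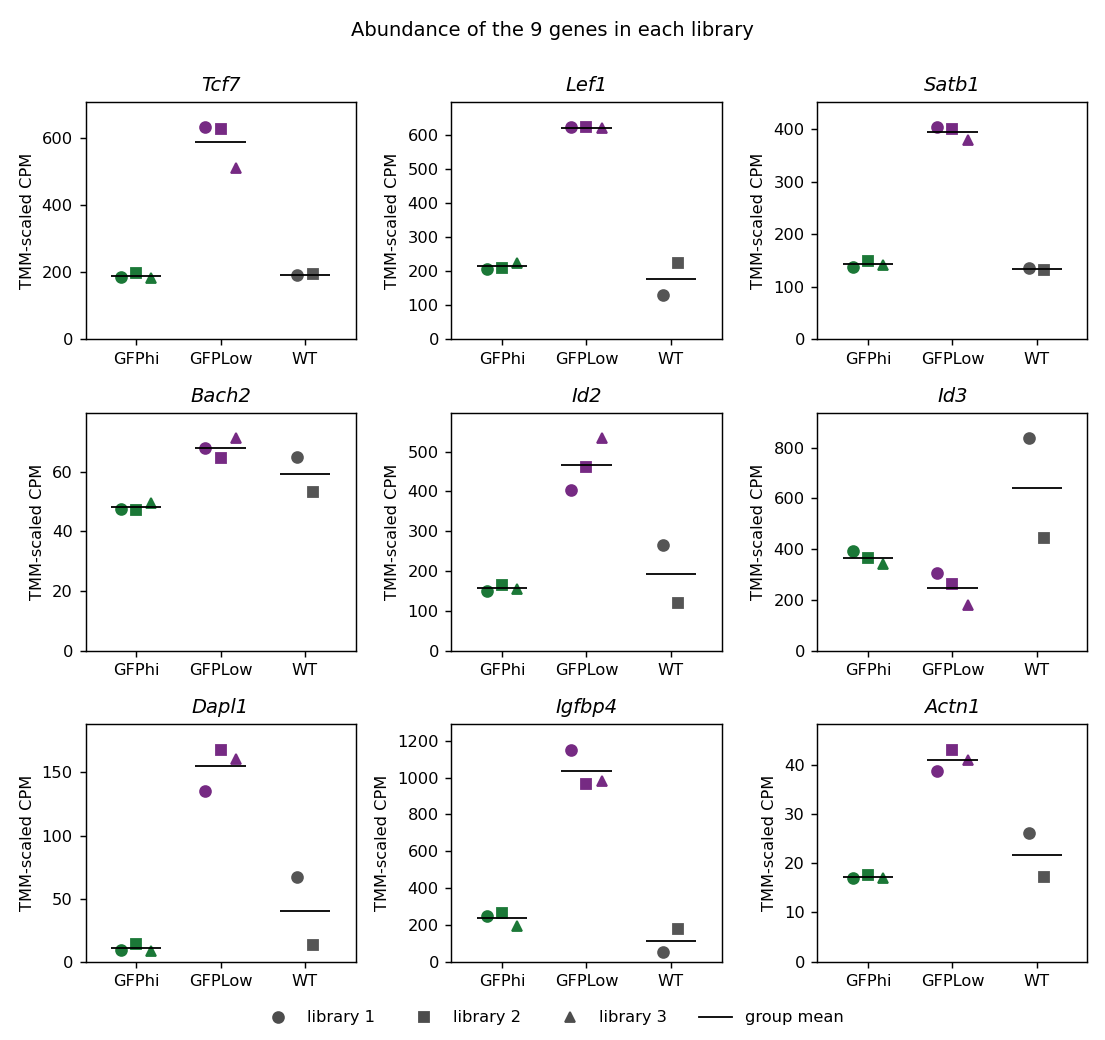
TMM-scaled CPM of each of the 9 genes (vertical axis, from 0) in the GFPhi, GFPLow and WT libraries, with 1 point per library and a line at the group mean. Tcf7, Lef1, Satb1, Id2, Dapl1, Igfbp4 and Actn1 are highest in the 3 GFPLow libraries, Id3 is lowest there, and the 2 WT libraries lie far apart for Id2, Id3, Dapl1 and Igfbp4.

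GFPhi and GFPLow are both TIM-3+ FLAG+ cells of the same genotype and differ in GFP and FoxP3 status. Their Havcr2 level differed too, at 1077 to 1791 CPM in GFPhi and 127 to 538 CPM in GFPLow. What goes with each of these cannot be told apart. In GFPhi, 7 of the 9 genes fell relative to GFPLow and none rose, by factors of 2.38 (Actn1) to 14.4 (Dapl1). Bach2 and Id3 did not pass. The test was edgeR's quasi-likelihood test with Benjamini-Hochberg adjustment over all genes and a threshold of 0.05. It called 2.26% of all genes tested, 1.63% as higher and 0.626% as lower, with 11.6% at an unadjusted p under 0.05. The 9 genes had a median log2 fold change of -1.54, against 0.01 over all genes tested. The libraries of GFPhi and GFPLow did not overlap for any of the 9 genes, against 30.0% of all genes, and lay lower for 8 of the 9 (14.0% of all genes) and higher for Id3 (16.0%).

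Among the transcription factor genes, Tcf7 (ENSMUSG00000000782, GRCm38 chromosome 11, 52252371 to 52283014, minus strand) stood at 184.8, 198 and 184 CPM in GFPhi libraries 1 to 3, against 632, 626 and 511 CPM in GFPLow libraries 1 to 3. Every GFPhi library lay below every GFPLow library, by a wide gap. Tcf7 fell by 1.64 ± 0.17 on the log2 scale (SE, adjusted p = 0.00346), a factor of 3.12. Its relative Lef1 (ENSMUSG00000027985, chromosome 3, 131110471 to 131224356, plus strand) stood at 207, 209.5 and 225 CPM in GFPhi, against 622, 621.5 and 619 CPM in GFPLow. The 3 GFPLow libraries were nearly level for Lef1, which fell by 1.54 ± 0.22 (adjusted p = 0.0117). Satb1 (ENSMUSG00000023927, chromosome 17, 51736187 to 51833290, minus strand) stood at 137, 149.8 and 141 CPM in GFPhi, against 404, 401 and 379 CPM in GFPLow. It too was lower in every GFPhi library and fell by 1.47 ± 0.15 (adjusted p = 0.00338).

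Bach2 (ENSMUSG00000040270, chromosome 4, 32238804 to 32586108, plus strand) differed less. It stood at 47.6, 47.2 and 49.4 CPM in GFPhi, against 68.1, 64.7 and 71.2 CPM in GFPLow. The groups did not overlap, but the log2 fold change of -0.50 ± 0.15 (SE) did not pass (adjusted p = 0.185). It passed as lower when the fit held only the 6 libraries of these groups, at -0.50 ± 0.08 on the log2 scale (SE, adjusted p = 0.0058). It also passed as lower by DESeq2 and by limma voom with sample quality weights. These fits called more genes in all than the main test.

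The Id genes went in opposite directions by their means. Id2 (ENSMUSG00000020644, chromosome 12, 25093799 to 25097140, minus strand) stood at 149, 165 and 155 CPM in GFPhi, against 404.5, 462 and 533 CPM in GFPLow, and fell by 1.58 ± 0.29 (adjusted p = 0.0335). Id3 (ENSMUSG00000007872, chromosome 4, 136143497 to 136145755, plus strand) stood at 393.5, 363 and 339.9 CPM in GFPhi, against 305, 262 and 178 CPM in GFPLow. All 3 GFPhi libraries were above all 3 GFPLow libraries for Id3, with a log2 fold change of 0.56 ± 0.29 (SE) that did not pass (adjusted p = 0.558). It passed as higher, at 0.59 ± 0.11, with a replicate block and only the 6 libraries of these groups (adjusted p = 0.0275), and not with the block over all 8 libraries (adjusted p = 0.546). Of the markers of NK cells, which also express Id2, all 5 together summed to 1.28 to 2.67 CPM in GFPhi, 24.5 to 66.1 CPM in GFPLow, and 12.1 and 1.59 CPM in WT, and GFPLow library 3 was the highest both in this sum and in Id2. Of the 5, Klrb1c fell in GFPhi against GFPLow by 3.38 ± 0.63 (SE, adjusted p = 0.0353), and Klrd1 was at 0 to 0.376 CPM in GFPhi and 14.4 to 19.2 CPM in GFPLow. The defining Ncr1 was at 0 in 2 of 3 GFPhi libraries and in 2 of 3 GFPLow libraries, with 7.81 CPM in GFPLow library 3. The part of these cells in the Id2 difference was not tested.

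Per length of exon, as RPKM (TMM-scaled CPM per kilobase of all annotated exons), the level of Id2 was 61.1 to 67.5 in GFPhi and 166 to 219 in GFPLow. The level of Id3 was 189.8 to 219.7 RPKM in GFPhi and 99.5 to 170.4 RPKM in GFPLow. The ratio of Id2 to Id3 in RPKM was thus 0.278, 0.333 and 0.335 in GFPhi libraries 1 to 3, against 0.973, 1.29 and 2.2 in GFPLow libraries 1 to 3, and it was 0.234 and 0.199 in WT libraries 1 and 2. In RPKM, Id3 exceeded Id2 in all GFPhi and WT libraries, and Id2 exceeded Id3 in GFPLow libraries 2 and 3. The order in GFPLow library 1 depends on the length used. In CPM the ratio of Id3 to Id2 was 0.755, 0.568 and 0.334 in GFPLow libraries 1 to 3. These ratios were chosen after their values were seen and carry no test.

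**Figure D2:**
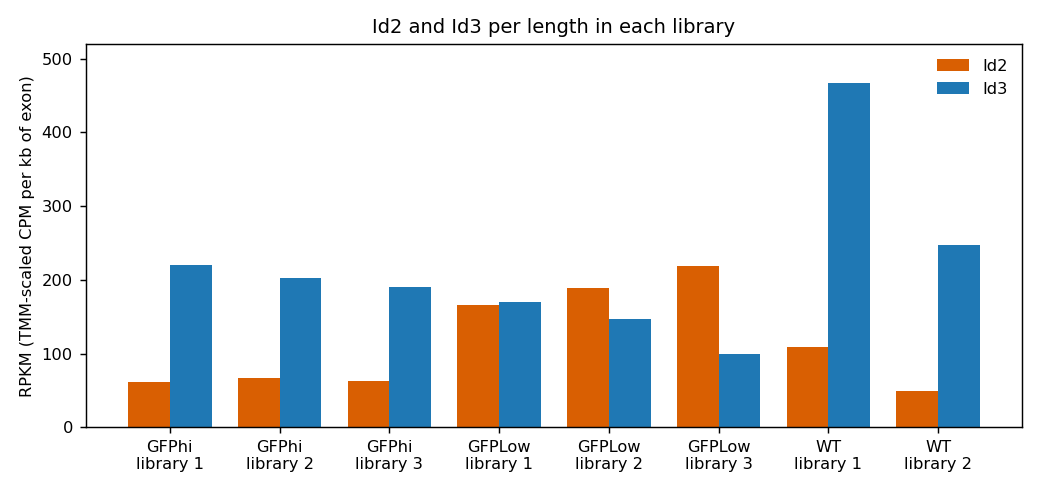
Levels of Id2 and Id3 in RPKM (vertical axis, from 0) in each of the 8 libraries, 1 bar per gene and library. Id3 is above Id2 in the 3 GFPhi and 2 WT libraries, while in GFPLow library 1 both are near equal (166 and 170.4 RPKM) and in GFPLow libraries 2 and 3 Id2 is above Id3.

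Among the transcript markers, Dapl1 and Igfbp4 differed by the largest factors of the 9 genes and Actn1 by a smaller one. Dapl1 (ENSMUSG00000026989, chromosome 2, 59484653 to 59505020, plus strand) stood at 9.37, 14 and 8.76 CPM in GFPhi, against 135, 168 and 161 CPM in GFPLow, and fell by 3.85 ± 0.56 (adjusted p = 0.0128). Every GFPhi library lay far below every GFPLow library for Dapl1. Igfbp4 (ENSMUSG00000017493, chromosome 11, 99041244 to 99054392, plus strand) stood at 246, 266 and 196 CPM in GFPhi, against 1152, 966 and 984 CPM in GFPLow, and fell by 2.13 ± 0.41 (adjusted p = 0.0381). Actn1 (ENSMUSG00000015143, chromosome 12, 80167547 to 80260371, minus strand) stood at 17.1, 17.6 and 16.9 CPM in GFPhi, against 38.7, 43.1 and 41 CPM in GFPLow, and fell by 1.25 ± 0.20 (adjusted p = 0.0184). The Actn1 values were tight within both groups.

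Tcf7 and Satb1 passed in GFPhi against GFPLow with any 1 library left out. With any 1 of the 6 GFPhi and GFPLow libraries left out they were the only members called. Lef1, Id2, Dapl1, Igfbp4 and Actn1 then had an adjusted p of up to 0.183 (Igfbp4).

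**Figure D3:**
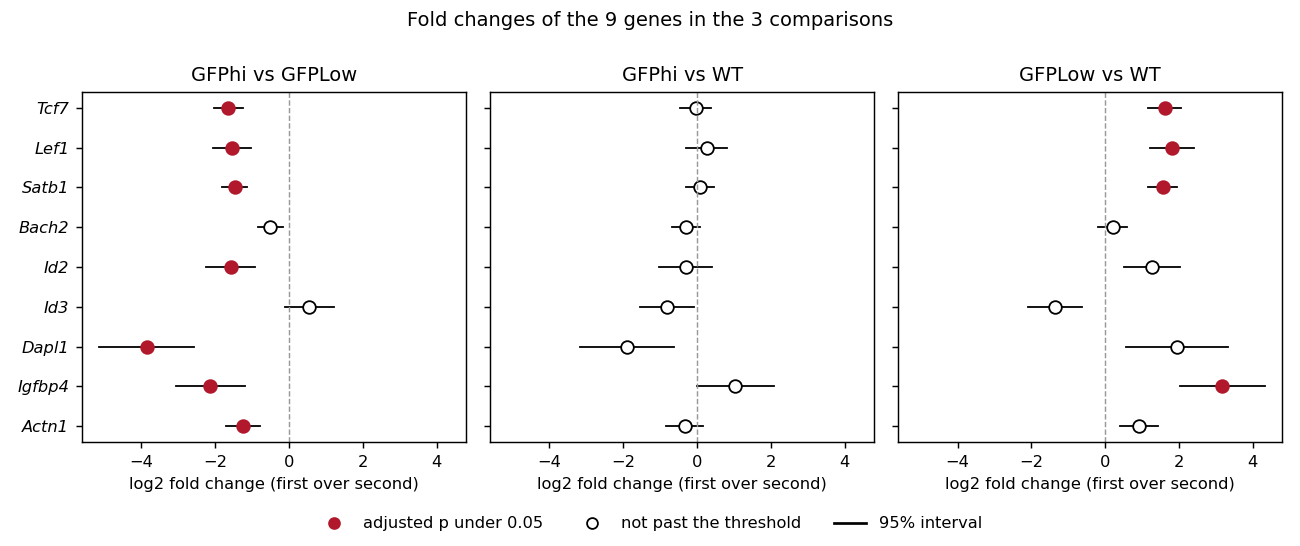
Log2 fold changes (horizontal axis, first group over second) of the 9 genes from edgeR's fit to all 8 libraries, with bars for the 95% interval and filled points for an adjusted p under 0.05. GFPhi against GFPLow has 7 filled points, all below 0, GFPhi against WT has none, and GFPLow against WT has 4, all above 0.

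GFPhi and WT are both FoxP3+ and GFP+ and differ in FSF-TIM-3 and in the TIM-3 and FLAG gates, which makes this the comparison for what TIM-3 does in Treg cells, the question the title names. What the allele does and what the gates select cannot be told apart. None of the 9 genes passed, and neither did any of the 18851 genes (0% called, with 13.7% at an unadjusted p under 0.05 by edgeR). At an unadjusted p under 0.05 edgeR had 2 of the 9, Id3 and Dapl1. At an adjusted p under 0.05, the threshold at which edgeR called none, limma voom also called 0 of the 9. At that threshold DESeq2 called 0 of the 6 to which it gave an adjusted p, with none given for Bach2, Dapl1 and Actn1. The median log2 fold change of the members was -0.30, against 0.08 over all genes.

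Tcf7 and Satb1 had the log2 fold changes nearest 0 among the 9 genes in GFPhi against WT. Tcf7 stood at 184.8, 198 and 184 CPM in GFPhi, next to 192.5 and 194 CPM for WT. The groups overlapped, and the log2 fold change was -0.03 with a 95% interval of -0.46 to 0.39. Satb1 stood at 137, 149.8 and 141 CPM in GFPhi, next to 137 and 132 CPM for WT, with a log2 fold change of 0.09 and a 95% interval of -0.29 to 0.47. Its GFPhi libraries lay just above both WT libraries, and with upper quartile scaling the sign turned (-0.06). Differences of a size inside these intervals are not excluded. The intervals are not adjusted over all genes tested, so they do not give the size of difference that would have passed. In this comparison Dapl1 (95% interval -3.18 to -0.63) and Id3 (-1.54 to -0.08) did not pass, although their intervals exclude 0.

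For most other members the WT libraries themselves differed, so that the values against WT follow the library taken. Lef1 was at 207 to 225 CPM in GFPhi, with WT library 1 at 131 CPM and WT library 2 at 224 CPM. Its log2 fold change of 0.27 ± 0.24 (SE) became -0.07 ± 0.07 without WT library 1 and 0.73 ± 0.08 without WT library 2, where it passed (adjusted p = 0.000148). Id2 was at 149 to 165 CPM in GFPhi, between the 266.5 CPM of WT library 1 and the 120 CPM of WT library 2. The sign of Id2 turned as well, with a log2 fold change of 0.38 ± 0.14 (SE) without WT library 1 (adjusted p = 0.955) and -0.74 ± 0.14 without WT library 2, where it passed as lower (adjusted p = 0.00308).

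Id3 and Bach2 were lower in every GFPhi library than in both WT libraries, by amounts that differed between the WT libraries. Id3 was at 339.9 to 393.5 CPM in GFPhi, next to 837 and 444 CPM for WT libraries 1 and 2, or -0.81 ± 0.32 on the log2 scale (SE, adjusted p = 0.351). It was -0.28 ± 0.24 without WT library 1 and -1.17 ± 0.23 without WT library 2, where it passed (adjusted p = 0.00426). Bach2 was at 47.2 to 49.4 CPM in GFPhi, next to 65.1 and 53.4 CPM for WT, at -0.15 without WT library 1 and -0.41 without WT library 2, where it passed (adjusted p = 0.0167). In all, 4 of the 9 genes had GFPhi and WT libraries that did not overlap, against 28.1% of all genes. Bach2 and Id3 were lower in GFPhi (12.6% of all genes), and Satb1 and Igfbp4 were higher (15.6%).

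Dapl1 and Igfbp4 differed by the largest factors between the 2 WT libraries. Dapl1 was at 8.76 to 14 CPM in GFPhi, next to 67.1 and 13.3 CPM for WT libraries 1 and 2, so that WT library 1 was 5.03 times WT library 2. Its difference of -1.91 ± 0.55 on the log2 scale (SE, adjusted p = 0.347) rested on WT library 1, and it was -0.32 without that library and -2.62 without WT library 2, where it passed. Igfbp4 was at 196 to 266 CPM in GFPhi, next to 52.5 and 177 CPM for WT, or 1.04 ± 0.45 on the log2 scale (SE, adjusted p = 0.365), which was 0.41 without WT library 1 and 2.19 without WT library 2, where it passed. Actn1 was at 16.9 to 17.6 CPM in GFPhi, next to 26.2 and 17.2 CPM for WT. The 7 platelet markers, a cell type that also expresses Actn1, summed to 0.187 to 0.64 CPM in GFPhi and 0.654 to 7.7 CPM in GFPLow, next to 40.8 and 3.38 CPM for WT libraries 1 and 2, with 2 of them at 0 in each WT library. Their part in these values was not tested. Against WT library 1 alone edgeR called 7 of the 9 genes and 8234 genes in all.

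GFPLow and WT differ in TIM-3, FLAG, GFP and FoxP3 status at once. In GFPLow, 4 of the 9 genes rose (Tcf7, Lef1, Satb1 and Igfbp4) and none fell, while 3.30% of all genes were called, 1.08% as higher and 2.23% as lower, with 25.0% at an unadjusted p under 0.05. This comparison shares its WT libraries with GFPhi against WT and its GFPLow libraries with GFPhi against GFPLow, so its calls are no separate support for theirs. The median log2 fold change of the members was 1.55, against 0.02 over all genes. GFPLow and WT libraries did not overlap for 8 of the 9 genes, Bach2 being the exception, against 40.3% of all genes, with 7 higher (21.1% of all genes) and Id3 lower (19.2%).

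Satb1 stood at 379 to 404 CPM in GFPLow, against 137 and 132 CPM in WT, and rose by 1.55 ± 0.17 on the log2 scale (SE, adjusted p = 0.00436). Igfbp4 rose to 966 to 1152 CPM in GFPLow, against 52.5 and 177 CPM in WT libraries 1 and 2 (log2 fold change 3.17 ± 0.50, SE, adjusted p = 0.0162). Its size followed the WT library taken, at 2.55 without WT library 1 and 4.32 without WT library 2, and it did not pass without any 1 of the GFPLow libraries (adjusted p up to 0.0621). Tcf7 and Lef1 were above both WT libraries in all 3 GFPLow libraries, with adjusted p of 0.00554 and 0.0103.

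Id2, Dapl1, Actn1 and Id3 did not pass in GFPLow against WT although their libraries did not overlap. Id2 stood at 404.5 to 533 CPM in GFPLow, next to 266.5 and 120 CPM for WT (log2 fold change 1.27 ± 0.33, SE, adjusted p = 0.086). Dapl1 stood at 135 to 168 CPM in GFPLow, next to 67.1 and 13.3 CPM for WT (1.95 ± 0.60, adjusted p = 0.116), and Actn1 at 38.7 to 43.1 CPM in GFPLow, next to 26.2 and 17.2 CPM for WT (0.92 ± 0.23, adjusted p = 0.0754). With either 1 of the WT libraries left out these 3 stayed above 0, by sizes that followed the library left out. Without WT library 1 and without WT library 2 in turn, the log2 fold change was 1.96 and 0.83 for Id2, 3.54 and 1.23 for Dapl1, and 1.26 and 0.67 for Actn1. Id3 was the single member lower in GFPLow by its mean, at 178 to 305 CPM, against 837 and 444 CPM in WT (-1.36 ± 0.32, adjusted p = 0.0635). Its log2 fold change was -1.73 without WT library 2 and -0.83 without WT library 1. Bach2 overlapped, at 64.7 to 71.2 CPM in GFPLow, next to 65.1 and 53.4 CPM for WT. When only the GFPLow and WT libraries were fitted none of the 9 genes was called, with 33 genes called in all.

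The order of the group means was GFPLow above both other groups for Tcf7, Lef1, Satb1, Bach2, Id2, Dapl1, Igfbp4 and Actn1, and WT above GFPhi above GFPLow for Id3. Many neighbours in this order did not pass the test, namely GFPhi and WT for all 9 genes, GFPLow and WT for Bach2, Id2, Dapl1 and Actn1, and GFPhi and GFPLow for Id3. No pair of groups passed for Bach2 in the main test. Per length of exon, the highest group mean in GFPLow was that of Igfbp4 at 234 ± 23.3 RPKM (SD, n = 3), followed by Dapl1 at 228 ± 25.2, Tcf7 at 225 ± 26 and Id2 at 191 ± 26.4 RPKM, whose spreads overlap. In GFPhi the highest level was that of Id3, at 204 ± 15 RPKM (SD, n = 3), followed by Tcf7 at 72 ± 3.07 RPKM, and Dapl1 was at 15.8 ± 4.2 RPKM. In GFPhi, GFPLow and WT alike Bach2 and Actn1 were below 10 RPKM, at 4.83 and 3.1 RPKM in GFPhi, 6.84 and 7.4 RPKM in GFPLow, and 5.37 to 6.55 and 3.11 to 4.74 RPKM in the WT libraries. The length counts every annotated exon, so genes with long alternative exons such as Satb1 (19027 bases) are given too low.

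Annotated genes that lie within the members' loci are described as well. Their reads can come from the host gene, so they are no separate support for the members' results. There were 16, of which 15 were tested, at Tcf7, Lef1, Satb1, Bach2 and Actn1. In GFPhi against GFPLow 5 fell and none rose, and in GFPLow against WT 4 rose and none fell (background 0.626% and 1.08%). They were not spread over the loci, since 4 of the 5 and 3 of the 4 lie within Satb1 and 1 each within Tcf7, and none at Lef1, Bach2 or Actn1 passed. C230085N15Rik, a transcript annotated inside Satb1 on the same strand with no shared exon, stood at 56.8, 60.9 and 59.1 CPM in GFPhi, against 182, 217 and 184 CPM in GFPLow and 23.3 and 50.3 CPM in WT. It fell in GFPhi against GFPLow by 1.72 ± 0.27 (SE, adjusted p = 0.0183), close in size to Satb1 itself. A630014C17Rik, antisense to Tcf7 with no shared exon, stood at 0.994, 0.866 and 0.945 CPM in GFPhi, against 4.8, 4.94 and 3.06 CPM in GFPLow and 1.01 and 0.621 CPM in WT, and fell in GFPhi by 2.19 ± 0.42 (adjusted p = 0.0356). How the counting treated strand is not given, so such reads and unspliced reads of the host gene cannot be told apart. Gm43352, antisense to Lef1, shares 1208 exon bases with it and held 5 to 326 counts per library, against 4047 to 33288 for Lef1. These transcripts were chosen by position, and some were named after their values were seen.

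The genes most like Tcf7 over the 8 libraries, by the root-mean-square difference of centred log2 CPM among 8078 candidates, were Satb1 (0.0995), Pdk1 (0.145), Klhdc1 (0.152), Themis (0.186) and Cd40lg (0.188). Pdk1 encodes pyruvate dehydrogenase kinase 1, Themis a thymocyte signalling protein and Cd40lg the CD40 ligand of helper T cells. Themis stood at 64.8, 76 and 60.4 CPM in GFPhi, against 217, 255 and 244 CPM in GFPLow and 64.9 and 60.7 CPM in WT. Those most like Id2 were Mettl9 (0.218), Rgcc (0.218), Actn1 (0.243), Cd40lg (0.255) and Emb (0.263). Rgcc, a regulator of the cell cycle, stood at 25.4, 27.4 and 29.4 CPM in GFPhi, against 92.6, 94 and 112.5 CPM in GFPLow and 70.5 and 28.6 CPM in WT libraries 1 and 2.

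Among 16 other naive or central T cell genes, 3 fell in GFPhi against GFPLow and none rose (0.626% and 1.63% of all genes). Of the 16, 14 were below 0, with a median log2 fold change of -0.28 (0.01 over all genes). Txk, a Tec family kinase, stood at 131.5, 145 and 136 CPM in GFPhi, against 337, 307 and 343 CPM in GFPLow (log2 fold change -1.26 ± 0.15, SE, adjusted p = 0.00617). Arl4c, a small GTPase of the ARF family, stood at 42.8, 54.1 and 61.6 CPM in GFPhi, against 151, 159.9 and 149 CPM in GFPLow (-1.54 ± 0.26, adjusted p = 0.0239). Il7r, the IL-7 receptor chain, was the third (-1.17 ± 0.20, adjusted p = 0.0247). The lymph node receptor gene Ccr7 was lower in all 3 GFPhi libraries without passing, at 500 to 679.6 CPM in GFPhi, against 1072 to 1156 CPM in GFPLow (adjusted p = 0.204). Ccr7 was chosen after its values were seen.

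In GFPLow against WT the same list had 3 genes that rose, Txk (1.52 ± 0.18, SE, adjusted p = 0.00477), Arl4c (adjusted p = 0.0141) and Il7r (1.47 ± 0.23, adjusted p = 0.0151). It had 1 that fell, the survival gene Bcl2 (-1.04 ± 0.21, adjusted p = 0.0387), named after its value was seen. Over all genes tested, 1.08% were called as higher and 2.23% as lower. In GFPhi against WT none of the 16 passed, with 9 above 0, 7 below 0 and a median of 0.05.

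**Figure D4:**
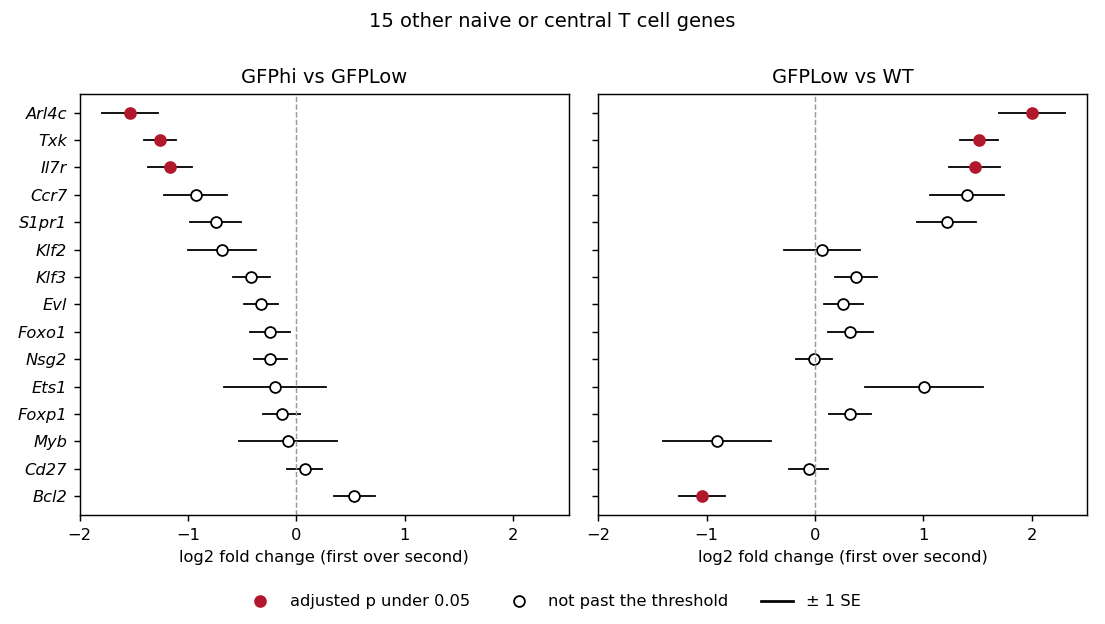
Log2 fold changes (horizontal axis, first group over second, bars ± 1 SE) of 15 of the 16 other naive or central T cell genes in GFPhi against GFPLow and in GFPLow against WT, with filled points for an adjusted p under 0.05. Arl4c, Txk and Il7r are filled below 0 on the left and above 0 on the right, where Bcl2 is filled below 0.

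Of 12 genes of precursor-exhausted and stem-like T cells, 2 rose in GFPhi against GFPLow and none fell (1.63% and 0.626% of all genes). Cd200, an inhibitory ligand, stood at 237.5, 211 and 182 CPM in GFPhi, against 89.8, 79.9 and 79.1 CPM in GFPLow (log2 fold change 1.34 ± 0.18, SE, adjusted p = 0.00931), and Ikzf2, the Ikaros family factor Helios that also marks Treg cells, was the other (2.48 ± 0.34, adjusted p = 0.0107). Slamf6, a surface marker of stem-like cells, averaged 677 ± 67.6 CPM in GFPhi and 695 ± 27.1 CPM in GFPLow (SD, n = 3 each) and did not pass, a gene chosen after its values were seen. In GFPLow against WT Cxcr3 rose and Cd200 and Ikzf2 fell (1.08% and 2.23% of all genes). Of 15 effector differentiation genes, 4 fell and 1 rose in GFPhi against GFPLow (0.626% and 1.63% of all genes). In GFPLow against WT 4 of the 15 rose (Tbx21, Cxcr6, Eomes and Gzmk), against 1.08% of all genes. The 1 that rose in GFPhi against GFPLow was Klrg1, at 98 ± 18.2 CPM in GFPhi and 15.6 ± 11.2 CPM in GFPLow (SD, n = 3 each). Its log2 fold change was 2.65 ± 0.51 (SE, adjusted p = 0.0384), and it was named after its value was seen. Gzmk, a granzyme gene, had the smallest adjusted p in GFPhi against GFPLow (0.00983), at 0.0187 CPM on average in GFPhi and 9.49 ± 4.94 CPM in GFPLow (SD, n = 3). Cxcr6, a chemokine receptor of tissue-homing effector cells, averaged 68.6 ± 20.3 CPM in GFPhi, against 221 ± 34.3 CPM in GFPLow (SD, n = 3 each, adjusted p = 0.0138). The T-bet gene Tbx21, a T helper 1 regulator, averaged 6.04 ± 1.54 CPM in GFPhi, against 17 ± 1.46 CPM in GFPLow (SD, n = 3 each, adjusted p = 0.0295), so both Tcf7 and Tbx21 were higher in GFPLow.

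Few partners of the members passed the test. Of the E proteins and other Id genes, 4 of 5 were tested and none passed in GFPhi against GFPLow (smallest adjusted p 0.65), GFPhi against WT or GFPLow against WT. Tcf12, an E protein, was at 91.2 to 104 CPM in GFPhi, 78.9 to 94.5 CPM in GFPLow, and 103 and 90.9 CPM in WT. Of the SATB and CUX family 1 of 3 was tested and did not pass. Of 14 genes of beta-catenin, the TCF family and Groucho corepressors none passed in any of the 3 comparisons, Tle4 having the smallest adjusted p in GFPhi against GFPLow (0.104), at 18.9 ± 1.39 CPM (SD, n = 3) in GFPhi and 37.5 ± 4.91 CPM in GFPLow. None of the 5 tested canonical Wnt targets passed, and Axin2 stood at 2.99 to 4.78 CPM in GFPhi and 4.59 to 4.77 CPM in GFPLow. Among relatives and partners of Bach2, Nfe2l2 (NRF2, a regulator of the antioxidant response) fell in GFPhi against GFPLow by 1.28 ± 0.18 (SE, adjusted p = 0.0105) and rose in GFPLow against WT by 1.45 ± 0.21 (adjusted p = 0.00967). The Blimp-1 gene Prdm1, a known target of Bach2, was at 12.3 to 13.4 CPM in GFPhi and 9.51 to 11.7 CPM in GFPLow and did not pass.

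Around Igfbp4, the receptor gene Igf1r stood at 40.9, 44.2 and 38.5 CPM in GFPhi, against 16.7, 21.7 and 12.1 CPM in GFPLow. It rose in GFPhi against GFPLow (1.29 ± 0.24, SE, adjusted p = 0.0341) and fell in GFPLow against WT (-1.46 ± 0.26, adjusted p = 0.0256), the direction opposite to Igfbp4. Igfbp7 rose in GFPhi against GFPLow, at 3.45 ± 2.3 CPM in GFPhi and 0.161 ± 0.113 CPM in GFPLow (SD, n = 3 each, adjusted p = 0.0401). Of the 7 tested genes of the alpha-actinin family and its focal adhesion partners and the 5 of the death-associated protein family, none passed in any of the 3 comparisons, and Actn4 averaged 138 CPM in GFPhi and 142 CPM in GFPLow.

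Markers of the remaining cell types a splenic sort could hold reached at most 224 CPM in sum. The 2 CD8 T cell markers summed to 19.7 to 23.7 CPM in GFPhi, 21.5 to 32.8 CPM in GFPLow, and 37.7 and 16.2 CPM in WT, with the defining Cd8a at 0.151 to 0.778 CPM in GFPhi, 0.616 to 4.05 CPM in GFPLow, and 0 and 0.276 CPM in WT. The 8 B cell markers, cells that also express Bach2, summed to 47 to 54.7 CPM in GFPhi, 8.5 to 18.6 CPM in GFPLow, and 79.3 and 58.4 CPM in WT, with Cd79b at 43.2 to 50.1 CPM in GFPhi, 3.03 to 11.2 CPM in GFPLow, and 70.4 and 50.5 CPM in WT. Myeloid markers summed to 0.395 to 20.1 CPM in GFPhi, 1.44 to 224 CPM in GFPLow (the highest in GFPLow library 3), and 9.09 and 28.7 CPM in WT. The 6 erythroid markers summed to 1.51 to 6.99 CPM in GFPhi, 0.785 to 16.9 CPM in GFPLow, and 2.76 and 5.59 CPM in WT.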

How the data were processed

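The authors deposited 1 table of whole-number counts per Ensembl gene for the 8 libraries, whose column totals differ and show no scaling to a common depth. Per the labels' protocols, cells were sorted into lysis buffer, and the SMART-Seq HT kit and the Nextera XT kit were used. HISAT2 2.1.0, SAMtools 1.9, HTSeq 0.11.2, edgeR, R 4.0 and genome build GRCm38 are named in the submitters' processing notes. Which annotation and strand setting were used is not stated. Symbols and coordinates came from GENCODE vM21 (GRCm38), which named 54808 of 54837 identifiers.

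From the counts, edgeR 4.0.16 (R 4.3.3) kept 18851 genes by filterByExpr, scaled libraries by TMM and fitted 1 mean per group to all 8 libraries (quasi-likelihood, robust, 5 residual degrees of freedom). Tests were two-sided, with Benjamini-Hochberg adjustment over all genes. SE is the log2 fold change divided by the square root of F. CPM is scaled by TMM. Likeness used log2 CPM (prior count 2) of protein-coding genes with a mean above 3, and names the 5 nearest genes. Of each list, up to 3 called genes with the smallest adjusted p were named. Genes that did not pass were named with values in view. Alternatives used DESeq2 1.42.0 and limma 3.58.1. Tables and figures used pandas 2.3.3 and matplotlib 3.10.9 (Python 3.11.15). The members and lists were chosen with earlier results of these data known. Some genes of the lists are counted but not reported singly here. Groups of 3 and 2 libraries are too small for a test of outliers.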

Additional observations from a re-analysis of the deposited data

How the results depend on the processing

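In GFPhi against GFPLow, 7 of the 9 genes and 426 genes in all were called, and in each of 20 alternatives every member kept its direction. The count of all genes was 1375 by DESeq2, 2271 by limma voom with sample quality weights and 2105 with only the libraries compared. With 1 library left out it ran from 105 to 1984, and the members called from 2 to 8. Without WT library 1 DESeq2 called 3246 genes and 9 members and voom 2105 and 8. In GFPhi against WT, with 0 members and 0 genes called, the count of all genes was 1 with no filter, 320 by DESeq2 and 72 by DESeq2 without WT library 1, and with 1 library left out it ran from 0 to 8234 and the members called from 0 to 7. Both highest values are the fit without WT library 2, where Lef1 was at 0.73 and Id2 at -0.74. Signs in GFPhi against WT turned for Satb1 with upper quartile scaling (-0.061) and with a filter of 5 CPM in 2 libraries (-0.011), for Tcf7 with no filter (0.0047), and, without WT library 1, for Lef1 (-0.068 by edgeR and by DESeq2, -0.071 by voom), Id2 (0.376 by edgeR, 0.375 by DESeq2, 0.384 by voom) and Actn1 (0.0021 by voom). None of these had passed in the main test, and the cause was not tested. In GFPLow against WT, with 4 members and 623 genes called, the members called were 8 by DESeq2 and 0 with only the libraries compared, and the genes 3243 by DESeq2, 72 by voom and 33 with only the libraries compared. Without 1 library they ran from 3 to 8 members and from 213 to 9002 genes, with 9 and 2449 by DESeq2 and 7 and 1418 by voom without WT library 1. Upper quartile scaling moved the median log2 fold change of all genes by -0.13 in GFPhi against WT and -0.14 in GFPLow against WT. Where 1 WT library was left out, the other was assumed to vary like the other groups.

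The replicate numbers in the titles were also used as a replicate block. Deviations from the group means correlated at 0.07, 0.07 and 0.15 (18851 genes) between GFPhi and GFPLow libraries of the same number, each library best with its own number, a hint from the data and not from the design. Libraries 3 of GFPhi and GFPLow held Xist (237 and 184 CPM) with Ddx3y at 0, and libraries 1 and 2 of both groups held Ddx3y at 194 to 228.5 CPM, so this pattern too goes with the number. The labels do not say what the number marks. With the block, 2 members and 182 genes were called in GFPhi against GFPLow, 0 members and 0 genes in GFPhi against WT (where Tcf7 turned to 0.026), and 2 members and 158 genes in GFPLow against WT. With the block and only the 6 libraries of GFPhi and GFPLow, 9 members and 1752 genes were called.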
